A study of Mus musculus with 27 samples.

Results

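The creatine kinase and ketone body genes followed here were Ckm, Ckmt2, Ckb, Slc6a8, Oxct1, and Bdh1. These 6 genes were taken by symbol from the 22855 genes of the count files, and all 6 passed the filter on low counts in each tissue. RNA-Seq was performed on whole heart and on cardiac fibroblasts of C57Bl/6 mice at 5 ages, postnatal day 1 (P1), 4 and 14 weeks, and 1 and 1.5 years. Whole heart had 3 samples at each of the 5 ages (15 in all). Cardiac fibroblasts had 3 samples at P1 and at 4 weeks and 2 at each later age (12 in all). The fibroblasts were sorted by flow cytometry on PDGFRα from ventricles freed of atria and valves, so other cells of the digest can be present. No allele or treatment is named for any group, and neither the sex of the animals nor pooling is given. By the study's methods the samples of an age came from different animals or hearts, whereas the labels tie no sample to an animal.

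Creatine kinases move a phosphate group between ATP and creatine, which links the places where ATP is made to those where it is spent. Ckm encodes the cytosolic muscle form, Ckb the cytosolic brain form, Ckmt2 the sarcomeric form held in mitochondria, and Slc6a8 the transporter that brings creatine into the cell. Ketone bodies are made mainly in the liver and oxidized in other organs, of which the heart is a large user. Bdh1 encodes the mitochondrial enzyme that turns β-hydroxybutyrate into acetoacetate, and Oxct1 the enzyme that activates acetoacetate with coenzyme A, the step that commits it to oxidation.

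Levels are given as CPM, counts relative to the library size after scaling by the TMM method. Changes are log2 fold changes with their SE from the quasi-likelihood F test of edgeR, and p values are adjusted over all genes tested. Totals ran from 46091271 to 67984404 counts in whole heart and from 54615898 to 76758831 in cardiac fibroblasts. Genes of the mitochondrial genome took between 10.8% and 13.7% of the counts of the P1 hearts and between 14.9% and 34.5% at later ages. From P1 to 4 weeks the median change of all genes was -0.09 with TMM, -0.60 with library size only, and -0.45 with the mitochondrial genome left out of the library size. The part of the mitochondrial share in this shift was not tested otherwise. The calls at that step were 2179 higher and 1097 lower with TMM and 980 higher and 3795 lower with library size only. Xist was at most 0.570 CPM in the 14-week and 1-year hearts and at least 6.48 in the others, and Ddx3y was at most 0.397 CPM at 1.5 years and at least 1.64 elsewhere. In cardiac fibroblasts Xist was at most 0.315 CPM at 14 weeks and 1 year and at least 137 at the other ages, and Ddx3y was at most 0.0813 CPM at 1.5 years and at least 24.8 elsewhere. In both tissues age and sex therefore cannot be told apart in part of the comparisons. Among these are 1.5 years against 14 weeks and 1.5 years against 1 year. Each P1 heart and each fibroblast sample of P1 and 4 weeks held both transcripts, so no single sex can be assigned to them.

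The start regions of the members are shown for Ckm, Ckmt2, and Ckb, because these 3 genes of a single enzyme family moved differently with age, and for Oxct1, the member whose first step had the smallest SE. RefSeq windows on GRCm38.p6 were found for 5 of the 6 members. Each runs from 250 bases before the start to 50 bases after it, 5′ to 3′ on the strand of the gene. They lie at chr7:19410844-19411143 (plus strand) for Ckm, chr13:91876836-91877135 (minus strand) for Ckmt2, chr12:111672289-111672588 (minus strand) for Ckb, and chr15:4026178-4026477 (plus strand) for Oxct1. The window of Ckm lies within the GENCODE span of the gene, which begins further upstream. Capitals mark matches to an E-box (CANNTG), to AAGGTCA, to TATAAA, or to the MEF2 site on either strand.
Ckm: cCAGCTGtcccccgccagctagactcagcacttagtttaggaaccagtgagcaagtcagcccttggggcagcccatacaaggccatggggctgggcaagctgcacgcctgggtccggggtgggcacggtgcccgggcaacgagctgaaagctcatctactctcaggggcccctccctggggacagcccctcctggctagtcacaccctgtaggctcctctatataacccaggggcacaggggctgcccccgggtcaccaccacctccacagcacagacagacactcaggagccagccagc
Ckmt2: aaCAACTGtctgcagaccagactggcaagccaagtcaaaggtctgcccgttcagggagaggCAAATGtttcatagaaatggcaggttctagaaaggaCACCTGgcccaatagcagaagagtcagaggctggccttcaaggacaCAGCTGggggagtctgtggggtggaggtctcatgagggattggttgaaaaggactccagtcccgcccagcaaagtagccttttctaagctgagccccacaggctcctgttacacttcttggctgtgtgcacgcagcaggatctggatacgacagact
Ckb: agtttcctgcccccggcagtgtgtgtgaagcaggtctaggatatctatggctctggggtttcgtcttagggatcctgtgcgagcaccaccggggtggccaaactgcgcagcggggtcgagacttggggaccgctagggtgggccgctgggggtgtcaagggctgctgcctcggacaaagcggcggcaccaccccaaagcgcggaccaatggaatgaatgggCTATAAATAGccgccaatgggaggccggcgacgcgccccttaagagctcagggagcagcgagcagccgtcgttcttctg
Oxct1: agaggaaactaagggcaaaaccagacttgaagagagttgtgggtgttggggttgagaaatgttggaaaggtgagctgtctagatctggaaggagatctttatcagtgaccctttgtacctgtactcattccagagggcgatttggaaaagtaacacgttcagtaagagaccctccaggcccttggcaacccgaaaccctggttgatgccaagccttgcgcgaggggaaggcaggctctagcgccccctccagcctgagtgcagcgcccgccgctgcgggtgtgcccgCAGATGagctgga
The E-box letters occurred 1 time in the Ckm window and 4 times in the Ckmt2 window, and not in that of Ckb. The window of Ckb held TATAAA inside a match to the MEF2 site, so the capitals there mark both at once. The Oxct1 window held 1 E-box match. Of all 32851 windows in the table, 72.3% held an E-box match, 13.6% TATAAA, 4.72% AAGGTCA, and 3.19% the MEF2 site. These matches are descriptions of letters and not of bound sites.

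By 4 weeks of age, whole heart had gained Ckmt2, Oxct1, Bdh1, and Slc6a8 and had less Ckb than at P1. Of the 6 members, 4 were higher and 1 was lower at an adjusted p under 0.05. The call of Slc6a8 was lost with library size only. Of all 17995 genes tested, 12.1% were higher and 6.1% lower, or 18.2% in both directions. The median change of the members was 1.46 on the log2 scale. In 5 of the 6 members, all but Bdh1, the samples of the 2 ages did not overlap, which was so for 39.0% of all genes tested. It was so for 3 members (Ckmt2, Ckb, and Oxct1) and 47.5% of all genes with library size only. At 1.5 years all 6 members differed from P1, 5 of them higher and 1 lower, against 31.8% of all genes. Over the 5 ages together 5 members differed, against 34.3% of all genes. Ckm (adjusted p = 0.0768) was the member that did not pass that test.

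**Figure D1:**
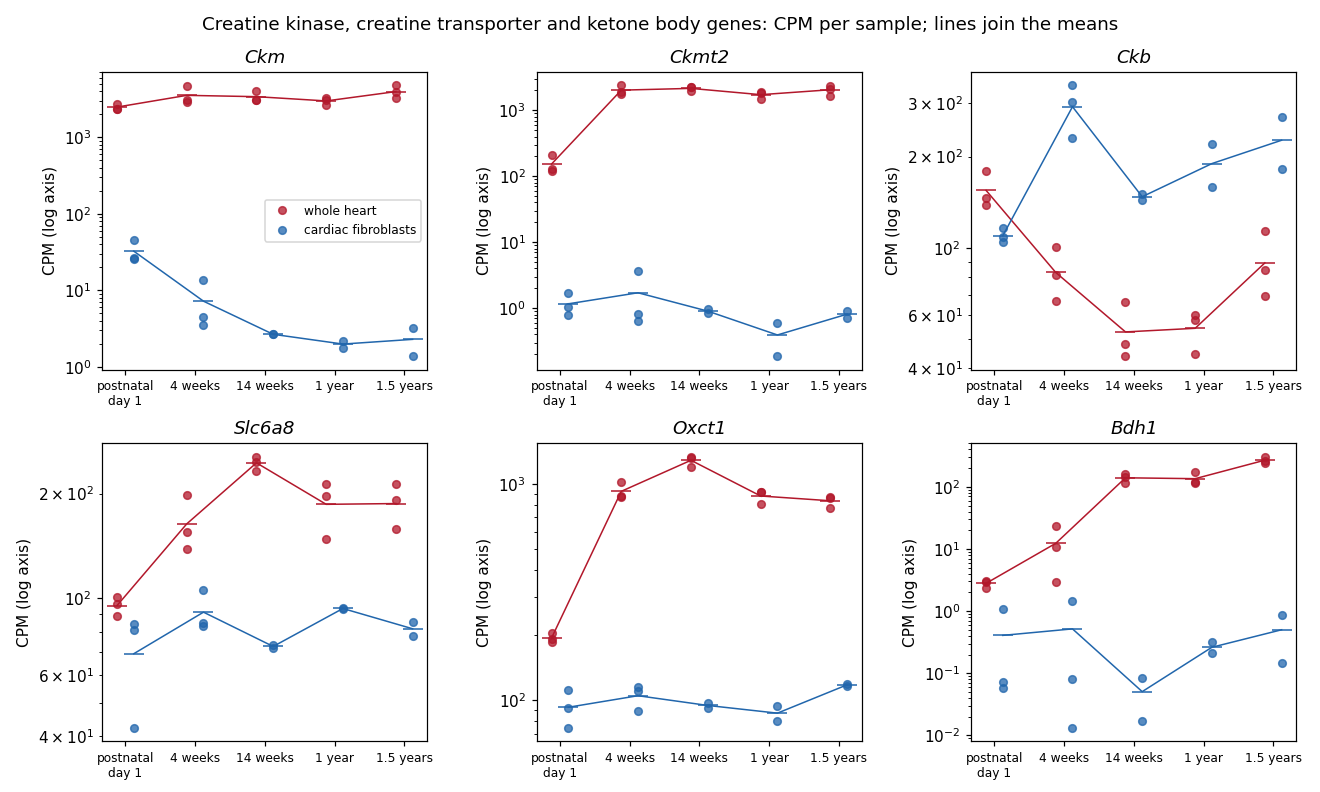
CPM of each member (log axis) in each sample by age, in whole heart (red) and cardiac fibroblasts (blue), with lines joining the means. Ckmt2, Oxct1, and Bdh1 of whole heart rise after P1, whereas Ckb falls in whole heart and rises in cardiac fibroblasts by 4 weeks.

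Ckm, which lies at chr7:19404776-19422841 on the plus strand and carries 2913 bases of exon, had the highest CPM of the members in whole heart at every age. Its level was 2723, 2347, and 2346 CPM in the P1 hearts and 2854, 4625, and 3069 CPM at 4 weeks. The P1 samples were all below those of 4 weeks, with 1 sample of 4 weeks well above the rest. The difference on the log2 scale, 0.51 (SE 0.19, adjusted p = 0.0784), did not pass the threshold. Without replicate 1 of 4 weeks it was 0.64 (adjusted p = 0.0399). With library size only in place of TMM it was 0.0027.

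At 1.5 years Ckm stood at 3217, 3853, and 4741 CPM, all above P1. Against P1 this was 0.67 on the log2 scale (SE 0.19, adjusted p = 0.0134). That call was lost without replicate 3 of 1.5 years (0.51, adjusted p = 0.0639) and with library size only (0.068, adjusted p = 0.803). The means of the 5 ages ran from 2472 ± 218 CPM (SD, n = 3) at P1 to 3937 ± 765 CPM (SD, n = 3) at 1.5 years, and each age overlapped its neighbor in that order. The whole heart samples with the highest Ckm, replicate 2 of 4 weeks and replicate 3 of 1.5 years, also had high sums of 8 cardiomyocyte marker genes (80340 and 94534 CPM, with 46449 CPM as the highest at P1). Their sums of 4 red cell genes were 1392 and 909 CPM, and the part of either in the level of Ckm was not tested. In whole heart, fewer cells of a type and less RNA per cell cannot be told apart.

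Ckmt2, at chr13:91853387-91876885 on the minus strand with 1486 bases of exon, rose most from P1 to 4 weeks. Its level was 211, 131, and 119 CPM at P1 and 1903, 2389, and 1780 CPM at 4 weeks. Every sample of 4 weeks exceeded every sample of P1 by far. On the log2 scale the change was 3.72 (SE 0.22, adjusted p = 1.0e-08), or 13.2-fold, and lay between 3.56 and 4.02 when samples were left out 1 at a time. With library size only it was 3.22.

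After 4 weeks no step of Ckmt2 passed the test. The means of 4 and 14 weeks were 2024 ± 322 and 2152 ± 145 CPM, and those of 1 and 1.5 years 1728 ± 231 and 2053 ± 350 CPM (SD, n = 3). Each of these 4 ages overlapped its neighbor in the order of the means, but all samples of 1 year were below all of 14 weeks. The log2 fold change was 0.09 (SE 0.20) from 4 to 14 weeks and -0.07 (SE 0.20) from 14 weeks to 1.5 years, with a sign that changed under other settings. The sum of the 8 cardiomyocyte markers in whole heart also rose, from 38784 to 46449 CPM at P1 to 64718 to 80340 CPM at 4 weeks. Of these 8 markers, 5 were higher at 4 weeks and none was lower, with a median log2 change of 0.54.

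Ckb, at chr12:111669361-111672338 on the minus strand with 2895 bases of exon, went the other way. Its level in whole heart was 179, 138, and 146 CPM at P1 and 66.6, 100, and 81.6 CPM at 4 weeks. All samples of 4 weeks were below all samples of P1. The log2 fold change was -0.90 (SE 0.21, adjusted p = 0.00688), and -1.40 with library size only. From 4 to 14 weeks it was -0.65 (SE 0.21, adjusted p = 0.167), which passed with library size only (-0.90, adjusted p = 0.0386).

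Between 14 weeks and 1.5 years Ckb rose again. It was at 66.2, 43.8, and 48.2 CPM at 14 weeks, at 57.9, 60.0, and 44.7 CPM at 1 year, and at 69.2, 84.6, and 114 CPM at 1.5 years. The samples of 1.5 years were above all of 14 weeks and 1 year and below all of P1. Against 14 weeks the log2 fold change of 1.5 years was 0.76 (SE 0.21, adjusted p = 0.0285). Of the 6 samples of these ages, 4 removed the call when left out (replicates 2 and 3 of 14 weeks, 0.64 and 0.69, and replicates 2 and 3 of 1.5 years, 0.79 and 0.54), as did a fit of the 2 ages alone (adjusted p = 0.0566). The sum of 5 fibroblast markers was also higher, from 600 to 716 CPM at 14 weeks and from 912 to 1059 CPM at 1.5 years (2 of the 5 passed upward), and that of the 4 red cell genes from 281 to 356 and from 639 to 1539 CPM (3 of 4 passed upward). The sum of 5 smooth muscle and pericyte markers overlapped between the 2 ages, with 565 to 585 and 467 to 669 CPM, and 2 of the 5 passed upward. Xist was at most 0.570 CPM in the hearts of 14 weeks and 1 year and at least 34.8 CPM in those of 1.5 years. In these comparisons with 1.5 years, age and sex cannot be told apart. The part of these cells and of sex in the level of Ckb was not tested. Against P1 the log2 fold change of Ckb at 1.5 years was -0.80 (SE 0.21, adjusted p = 0.00951), and without replicate 1 of P1 it was -0.61 (adjusted p = 0.0752).

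The 3 creatine kinase genes were compared with each other per kilobase of exon. At P1 whole heart held 849 ± 74.7 CPM per kilobase of Ckm, 103 ± 33.7 of Ckmt2, and 53.4 ± 7.54 of Ckb (SD, n = 3). At 4 weeks it held 1207 ± 332 of Ckm, 1362 ± 217 of Ckmt2, and 28.6 ± 5.86 of Ckb. On this scale Ckmt2 went from 10.1% of the 3 genes to 52.8% and Ckm from 84.6% to 46.1%, with no overlap between the samples of the 2 ages. The lengths cover all exons of GENCODE. With the shortest coding transcript of each gene (1235 bases for Ckm) Ckm made up 90.7% at P1 and 66.4% at 4 weeks and Ckmt2 4.60% and 32.3%, so which of the 2 was higher at 4 weeks rested on the length. The order of Ckmt2 and Ckb at P1 also rested on the length. With the principal transcript Ckb made up 9.45% and Ckmt2 9.16% there, and with the shortest coding transcript 4.74% and 4.60%. With all exons Ckb made up 5.44%, 5.07%, and 5.41% at P1 and between 0.525% and 1.24% in the 12 later samples.

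The mean Ckb share of the later samples was 4.37 percentage points lower than at P1 (exact permutation test, two-sided, p = 0.0044, the smallest that 12 against 3 samples can give, and 0.0132 after adjustment over 6 comparisons). The log2 ratio of Ckmt2 to Ckm counts, which needs no scaling between samples, was -4.05 ± 0.32 at P1 and -0.77 ± 0.18 at 4 weeks (SD, n = 3). Its mean in the later samples was 3.27 higher than at P1 (exact permutation test, p = 0.0044). Between 14 weeks and 1.5 years the Ckb share went from 0.705% ± 0.217 to 1.11% ± 0.0891 and the log2 ratio from -0.64 ± 0.18 to -0.94 ± 0.083 (SD, n = 3). For these and for P1 against 4 weeks the exact permutation p was 0.1, the smallest that 3 against 3 samples can give.

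**Figure D2:**
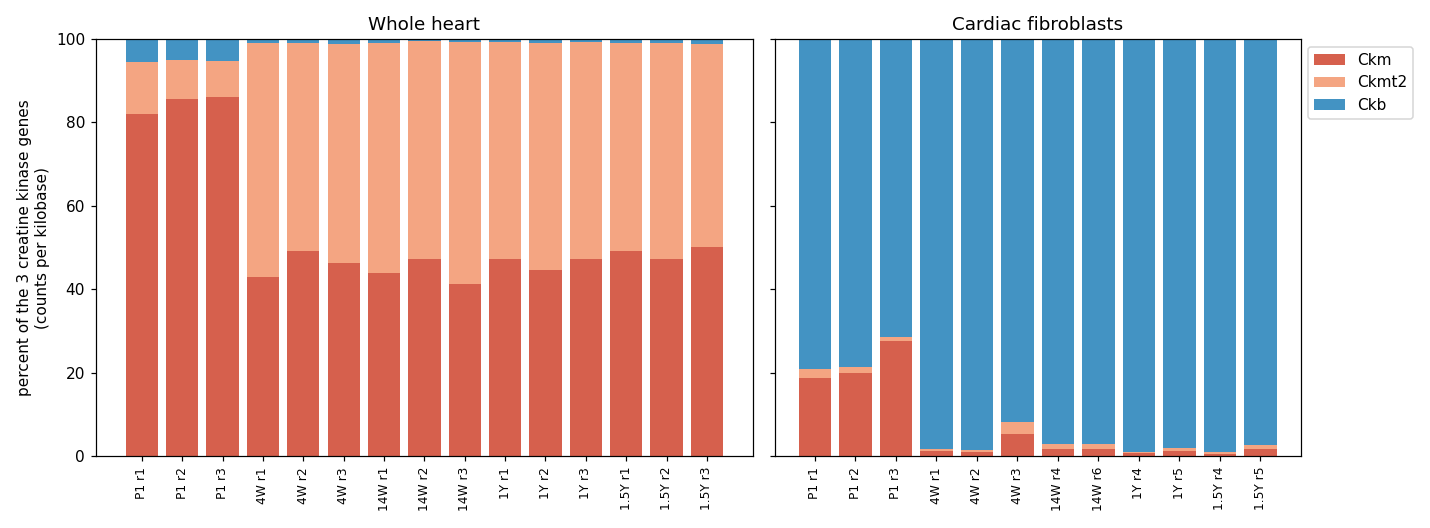
Share of Ckm, Ckmt2, and Ckb in the sum of the 3 genes (percent, counts per kilobase of exon), 1 bar per sample, with age and replicate number under each bar (P1, P1, W, weeks, Y, years). In whole heart Ckmt2 holds 8.54% to 12.5% at P1 and 48.7% to 58.2% later, and in cardiac fibroblasts Ckb holds at least 71.4% in every sample.

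Slc6a8, at chrX:73673150-73682502 on the plus strand, had 88.7, 101, and 96.2 CPM in the P1 hearts and 155, 198, and 138 CPM at 4 weeks. The 2 ages did not overlap. Its log2 fold change was 0.78 (SE 0.17, adjusted p = 0.00316). With library size only it was 0.27 (adjusted p = 0.315), and with the mitochondrial genome left out of the library size 0.41 (adjusted p = 0.108), so the call rested on the scaling.

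The highest Slc6a8 levels were those of 14 weeks, at 247, 233, and 255 CPM. They were above every sample of every other age. At the step from 4 to 14 weeks it changed by 0.58 on the log2 scale (SE 0.17, adjusted p = 0.102), and without replicate 2 of 4 weeks 0.74 (adjusted p = 0.0428). At 1 year the level was 148, 197, and 213 CPM and at 1.5 years 212, 191, and 158 CPM, with log2 fold changes against 14 weeks of -0.40 (adjusted p = 0.288) and -0.39 (adjusted p = 0.138). At 1.5 years the log2 fold change from P1 was 0.97 (SE 0.17, adjusted p = 0.00031), and 0.38 (adjusted p = 0.119) with library size only. Slc6a8 is on the X chromosome. Xist was at most 0.570 CPM in the 14-week hearts, in which Slc6a8 was highest, and in the 1-year hearts, in which it was lower. The part of sex in its level was not tested.

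Oxct1, at chr15:4026383-4155344 on the plus strand, had 191, 204, and 186 CPM in the P1 hearts. At 4 weeks it had 1016, 878, and 873 CPM and at 14 weeks 1196, 1334, and 1321 CPM. Each of these 3 ages stood apart from the other 2, and the replicates lay close together. Between P1 and 4 weeks the log2 fold change was 2.25 (SE 0.13, adjusted p = 6.8e-09), or 4.76-fold. The next step, of 0.48 (SE 0.12, adjusted p = 0.0578), did not pass in edgeR and passed in DESeq2 (adjusted p = 0.00032).

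After 14 weeks Oxct1 declined. Its level was 918, 913, and 802 CPM at 1 year and 868, 773, and 861 CPM at 1.5 years, all below every sample of 14 weeks. Against 14 weeks the change at 1.5 years was -0.62 on the log2 scale (SE 0.12, adjusted p = 0.00357), and it passed whichever sample was left out (between -0.67 and -0.57). At 1 year it was -0.55 (SE 0.12, adjusted p = 0.0402), a call that was lost when any 1 of the 6 samples was left out (adjusted p between 0.119 and 0.220) and with 6 other settings. At 1.5 years Oxct1 was 4.31-fold above P1 (log2 2.11, SE 0.12, adjusted p = 7.0e-09).

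Bdh1, at chr16:31422280-31458901 on the plus strand, had its largest change at a later step than Oxct1. It was low at P1, with 2.96, 3.06, and 2.38 CPM (271, 297, and 222 counts). At 4 weeks it had 2.93, 23.4, and 10.7 CPM, so that replicate 1 lay within the range of P1 and the other 2 above it. The log2 fold change was 2.14 (SE 0.46, adjusted p = 0.00314), and it was 1.29 without replicate 2 of 4 weeks and 2.60 without replicate 1. At 14 weeks all samples were far higher, at 116, 162, and 141 CPM.

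From 4 to 14 weeks Bdh1 rose by 3.50 on the log2 scale (SE 0.47, adjusted p = 0.00096), or 11.3-fold. It lay between 3.04 and 4.35 when samples were left out, the highest value being without replicate 2 of 4 weeks. At 1 year Bdh1 stood at 119, 172, and 115 CPM and at 1.5 years at 241, 259, and 306 CPM. The 1.5-year samples were above all others, but the log2 fold change from 14 weeks was 0.94 (SE 0.43, adjusted p = 0.165) and passed only in the fit of the 2 ages alone (0.99, adjusted p = 0.0108). At 1.5 years Bdh1 was 95.8-fold above P1 (log2 6.58, SE 0.55, adjusted p = 2.2e-07). Per kilobase of exon, Oxct1 stood at 52.4 ± 2.45 CPM and Bdh1 at 0.720 ± 0.0940 CPM at P1, and at 225 ± 14.3 and 69.0 ± 8.65 CPM at 1.5 years (SD, n = 3).

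The later steps of whole heart held few calls among the members. From 4 to 14 weeks 1 member passed, Bdh1, against 1.61% of all genes tested. From 14 weeks to 1 year it was 1 member, Oxct1, against 0.972%. From 1 to 1.5 years no member passed in edgeR, against 2.66% of all genes, with 3 members at an unadjusted p under 0.05 and 1 called by DESeq2, Ckb. From 14 weeks to 1.5 years 2 members passed, Ckb upward and Oxct1 downward, against 12.8%.

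**Figure D3:**
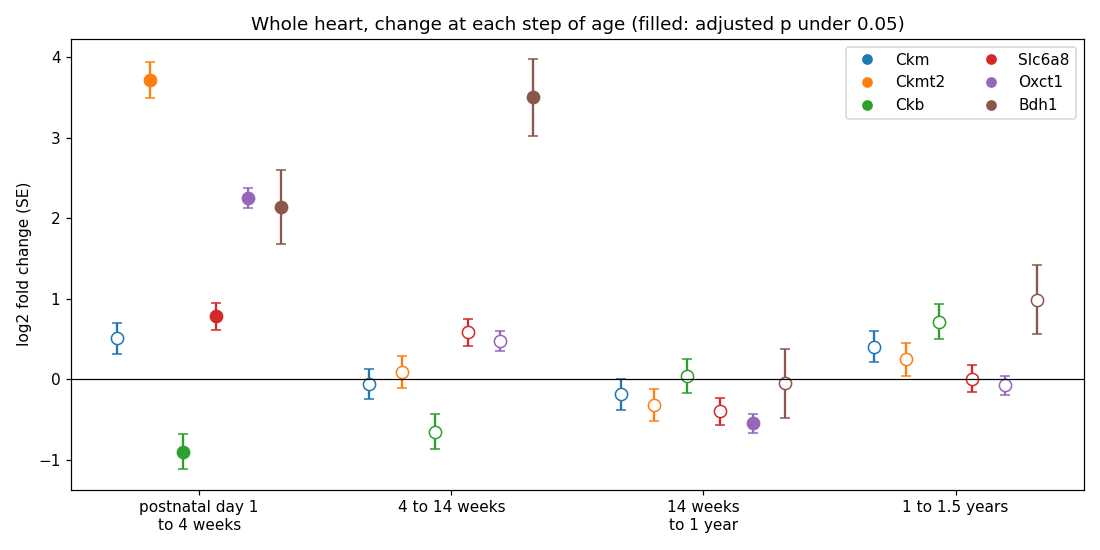
Log2 fold change (points) and SE (bars) of the 6 members at each step of age in whole heart, filled where the adjusted p was under 0.05. At the first step 5 members are filled, from -0.90 for Ckb to 3.72 for Ckmt2, and at the second only Bdh1, at 3.50.

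Among other genes of ketone body metabolism, 7 of a list of 9 were tested. At 4 weeks 2 were higher and none was lower than at P1 in whole heart, against 18.2% of all genes in both directions. Their median log2 change was 0.03 beside -0.09 over all genes. Slc16a1, a carrier of monocarboxylates including ketone bodies, went from 111 ± 9.02 to 267 ± 26.5 CPM (log2 1.27, adjusted p = 8.5e-06). Acat1, which cleaves acetoacetyl-CoA in the last step of ketone body use, went from 329 ± 48.7 to 437 ± 14.1 CPM (log2 0.41, adjusted p = 0.0349) and to 637 ± 10.8 at 14 weeks (log2 0.54, adjusted p = 0.043; SD, n = 3). The call at 14 weeks was lost with library size only and with the mitochondrial genome left out of the library size.

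Slc16a1 was also lower at the older age, with 152 ± 20.3 CPM at 1.5 years against 275 ± 18.8 at 14 weeks (SD, n = 3; log2 -0.85, adjusted p = 0.0016). At 1.5 years 2 of the 7 genes, Slc16a1 and Acat1, were higher than at P1 and none was lower, against 31.8% of all genes. With library size only neither passed there, and Slc16a1 turned to -0.14 (adjusted p = 0.540). At 4 weeks Acat1 turned to -0.10 (adjusted p = 0.608) with that scaling, so 1 gene was higher, whereas Slc16a1 (0.75, adjusted p = 0.0027) kept its call. With DESeq2's size factors, or with the mitochondrial genome left out of the library size, 1 of the 7 was likewise higher at 4 weeks.

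None of the 4 other genes of creatine synthesis and transport in the list passed in any of the 6 comparisons of ages in whole heart (edgeR). Gatm and Gamt, the enzymes that make creatine, were at 4.65 ± 1.82 and 5.95 ± 1.22 CPM at P1 and 3.99 ± 1.72 and 7.29 ± 1.32 CPM at 1.5 years. Ckmt1, the ubiquitous mitochondrial creatine kinase, was at 0.786 ± 0.711 CPM at its highest mean, that of 4 weeks (SD, n = 3).

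Adenylate kinases form a second system that buffers ATP. Of the 7 tested, 3 were higher at 4 weeks than at P1 and none was lower, against 18.2% of all genes in both directions. With library size only 2 were higher and 1 was lower. Ak1, the cytosolic form of muscle, went from 322 ± 16.9 to 627 ± 115 CPM (log2 0.96, adjusted p = 0.00038) and Ak4, a mitochondrial form, from 8.86 ± 0.554 to 28.0 ± 7.25 CPM (log2 1.66, adjusted p = 0.00013). Ak4 then fell from 45.9 ± 4.07 CPM at 14 weeks to 25.9 ± 8.36 CPM at 1.5 years (SD, n = 3; log2 -0.83, adjusted p = 0.0316). That call was lost with library size only (-0.67, adjusted p = 0.0728) and with DESeq2's size factors.

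The carriers and channels that pass ATP, ADP, and phosphate across the mitochondrial membranes were 3 higher and 1 lower of 7 at 4 weeks. Over all genes the share in both directions was 18.2%. The heart and muscle form of the ATP/ADP carrier, Slc25a4, went from 3576 ± 553 to 5891 ± 1141 CPM (log2 0.72, adjusted p = 0.0059), and Slc25a5, the form of dividing tissues, from 455 ± 81.1 to 231 ± 56.9 CPM (log2 -0.98, adjusted p = 0.00089; SD, n = 3). With library size only Slc25a4 had 0.21 (adjusted p = 0.334) and Slc25a5 -1.48, and the counts were 0 higher and 2 lower of 7.

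Of 6 regulators of oxidative metabolism, 3 were higher at 4 weeks (Esrra, Esrrb, and Ppara) and none was lower, against 18.2% of all genes. With library size only 1 was higher and 1 lower. At 1.5 years none was higher and 3 were lower than at 14 weeks, against 12.8% of all genes in both directions. Age and sex cannot be told apart in this comparison, and the part of sex was not tested. Ppara, a receptor for fatty acids, fell from 36.2 ± 4.48 to 14.2 ± 7.08 CPM (log2 -1.35, adjusted p = 0.0173), Ppargc1a, a coactivator of mitochondrial genes, from 102 ± 11.6 to 38.1 ± 24.8 CPM (log2 -1.43, adjusted p = 0.0161), and Esrrg, an orphan nuclear receptor, from 44.6 ± 3.48 to 17.9 ± 10.9 CPM (log2 -1.32, adjusted p = 0.0268; SD, n = 3). The last call was lost with library size only (-1.16, adjusted p = 0.0552).

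**Figure D4:**
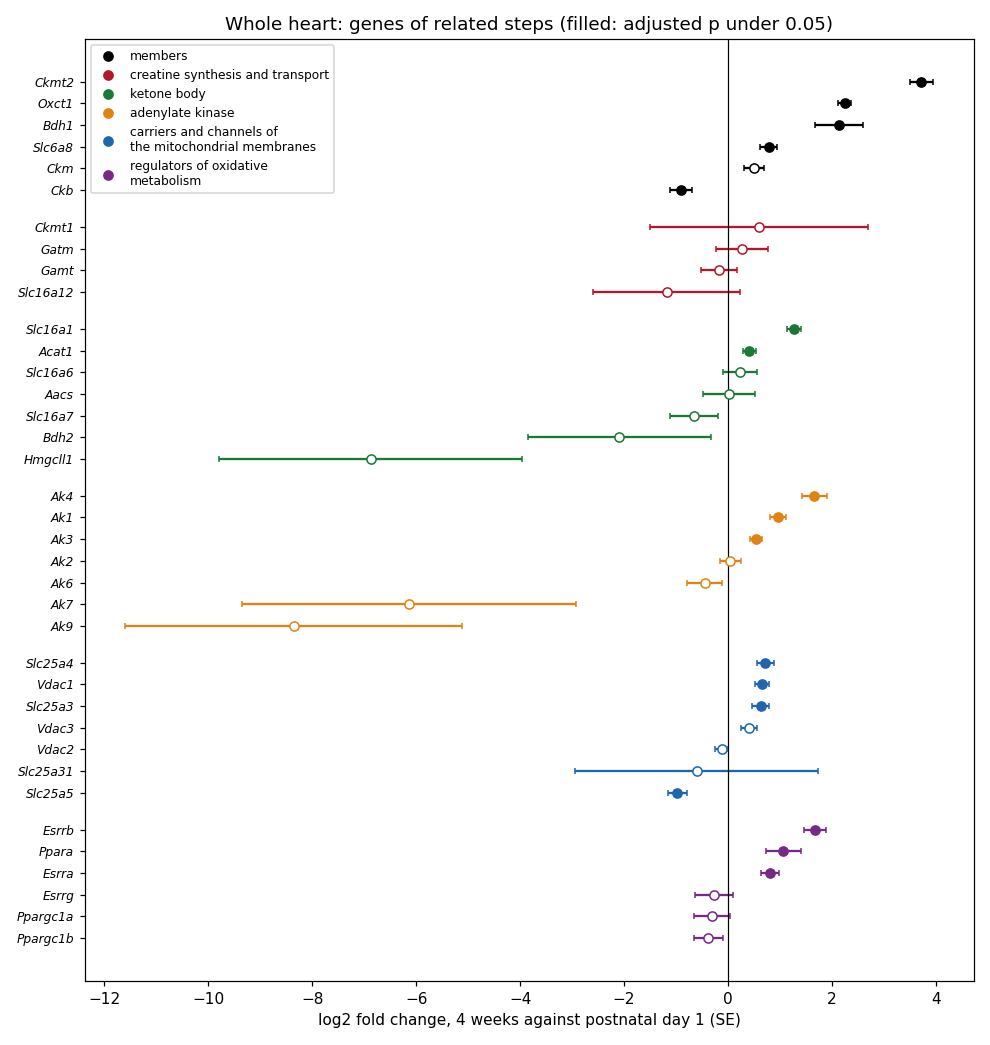
Log2 fold change from P1 to 4 weeks in whole heart (points) with SE (bars) for the members and for tested genes of 5 related lists, filled where the adjusted p was under 0.05. Slc16a1 lies at 1.27, and the points far to the left with long bars, such as Ak7 and Ak9, are open.

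In cardiac fibroblasts Ckb was the main form of the creatine kinases. Per kilobase of exon Ckb stood at 37.8 ± 1.98 CPM at P1 and Ckm at 11.2 ± 3.77 CPM (SD, n = 3). Ckb rose from 108, 105, and 116 CPM at P1 to 344, 304, and 230 CPM at 4 weeks, with no overlap. The change was 1.42 on the log2 scale (SE 0.19, adjusted p = 0.0002), and it passed whichever sample was left out.

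At 14 weeks the 2 fibroblast samples held 144 and 151 CPM of Ckb, below all of 4 weeks and above all of P1. The log2 fold change from 4 weeks was -0.99 (SE 0.21, adjusted p = 0.023). It was lost without replicate 1 (-0.85) or 2 (-0.96) of 4 weeks and without either sample of 14 weeks (-0.95 and -1.02). Leukocyte marker sums fell from between 192 and 274 CPM to 23.2 and 32.1 CPM at this step (3 of 5 passed downward). Sums of smooth muscle and pericyte markers rose from between 63.7 and 164 CPM to 324 and 447 CPM (1 of 5 passed upward). For 5 endothelial markers the sums were 382, 278, and 1489 CPM at 4 weeks and 1197 and 932 CPM at 14 weeks (none passed). At 1 year those sums were 223 and 416 CPM and at 1.5 years 126 and 1018 CPM. Mean Xist went from 460 CPM at 4 weeks to 0.0437 CPM at 14 weeks. The part of these cells and of sex in the level of Ckb was not tested. At 1 year the Ckb level was 220 and 159 CPM and at 1.5 years 271 and 182 CPM, which overlapped each other. At 1.5 years it was 1.05 against P1 (SE 0.20, adjusted p = 0.00291), and without replicate 4 of 1.5 years it was 0.73 (adjusted p = 0.0556).

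Ckm in cardiac fibroblasts fell from 25.7, 26.6, and 45.2 CPM at P1 to 4.55, 3.52, and 13.6 CPM at 4 weeks and to between 1.38 and 3.21 CPM at the later ages. The samples of P1 were above all others. Its log2 fold change was -2.17 (SE 0.52, adjusted p = 0.0122) at the first step and -3.82 (SE 0.66, adjusted p = 0.00138) by 1.5 years. At the first step the call was lost without replicate 3 of P1 (-1.86, adjusted p = 0.0552) or replicate 1 of 4 weeks (-1.92, adjusted p = 0.0522), and the value was -3.01 without replicate 3 of 4 weeks.

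The fall of Ckm in cardiac fibroblasts went with a fall of the cardiomyocyte markers. Their sum was between 709 and 794 CPM at P1, between 68.1 and 193 CPM at 4 weeks, and between 16.5 and 134 CPM later, and none of the 8 was at 0 in all samples of any age. As a percent of the whole heart mean at the same age, Ckm was at 0.816% to 1.44% at P1 and the 8 markers had medians of 1.09% to 1.31% over the 3 samples. At 4 weeks Ckm was at 0.0790% to 0.296% and the marker medians at 0.0669% to 0.252%, with replicate 3 highest in both. That sample also had the highest sum of 5 endothelial markers (1489 CPM, against 278 and 382 in the other 2). The part of cardiomyocyte RNA in the fibroblast level of Ckm was not tested.

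Ckmt2 and Bdh1 were at the edge of detection in cardiac fibroblasts. Ckmt2 lay between 0.186 and 3.67 CPM (13 to 271 counts), with the highest value in replicate 3 of 4 weeks. Bdh1 lay between 0.0134 and 1.46 CPM (1 to 108 counts), again with that sample highest. Neither passed in any comparison of ages.

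Slc6a8 and Oxct1 passed in none of the comparisons of ages in cardiac fibroblasts. Slc6a8 lay between 42.4 and 105 CPM and Oxct1 between 74.8 and 119 CPM over all 12 samples. Between P1 and 4 weeks the log2 difference was 0.40 for Slc6a8 (SE 0.21, adjusted p = 0.227) and 0.18 for Oxct1 (SE 0.16, adjusted p = 0.496). Over the 5 ages 2 members, Ckm and Ckb, differed, against 19.9% of all genes tested.

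In cardiac fibroblasts 2 of the 6 members passed at 4 weeks against P1 (15.5% of all 18759 genes tested) and 2 at 1.5 years against P1 (16.3%). From 4 to 14 weeks 1 passed (3.87%). None passed in edgeR from 14 weeks to 1 year (1.78%), from 1 to 1.5 years (0.24%), or from 14 weeks to 1.5 years (2.72%). At an unadjusted p under 0.05 these 3 comparisons had 0, 1, and 1 members, and DESeq2 called none in each.

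The change from P1 to 4 weeks was then compared between the tissues in 1 fit of all 27 samples. By the study's methods, hearts and sorted cells may come from the same animals, and the fit treated all samples as independent. For 4 of the 6 members it differed, against 7.14% of 20650 genes tested. As the change in cardiac fibroblasts minus that in whole heart, Ckb had 2.32 (SE 0.32, adjusted p = 5.4e-05), Oxct1 -2.07 (SE 0.20, adjusted p = 6.3e-07), Ckm -2.70 (SE 0.50, adjusted p = 0.00124), and Ckmt2 -3.19 (SE 0.61, adjusted p = 0.00149). For Ckb the 2 tissues moved in opposite directions, each past its own test. The 8 cardiomyocyte markers were all lower in the same test, with a median of -3.08, and their part in the values of Ckm and Ckmt2 was not tested. Slc6a8 (-0.39, adjusted p = 0.488) and Bdh1 (-1.88, adjusted p = 0.425) did not pass, and Slc6a8 changed sign with library size only.

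As a mean over the 5 ages, all 6 members differed between the tissues, against 56.8% of all genes. Ckb was higher in cardiac fibroblasts, with a log2 difference of 0.85 (SE 0.11, adjusted p = 2.4e-07). Slc6a8 (-1.39, SE 0.10) and Oxct1 (-3.17, SE 0.078) were lower there, as were Bdh1 (-7.67), Ckm (-9.70), and Ckmt2 (-10.73). By age, cardiac fibroblasts held Ckb at 53.2% to 59.0% of the whole heart mean at P1 and at 156% to 332% at the later ages. For Oxct1 the same figures were 30.3% to 45.3% and 5.68% to 11.1%.

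**Figure D5:**
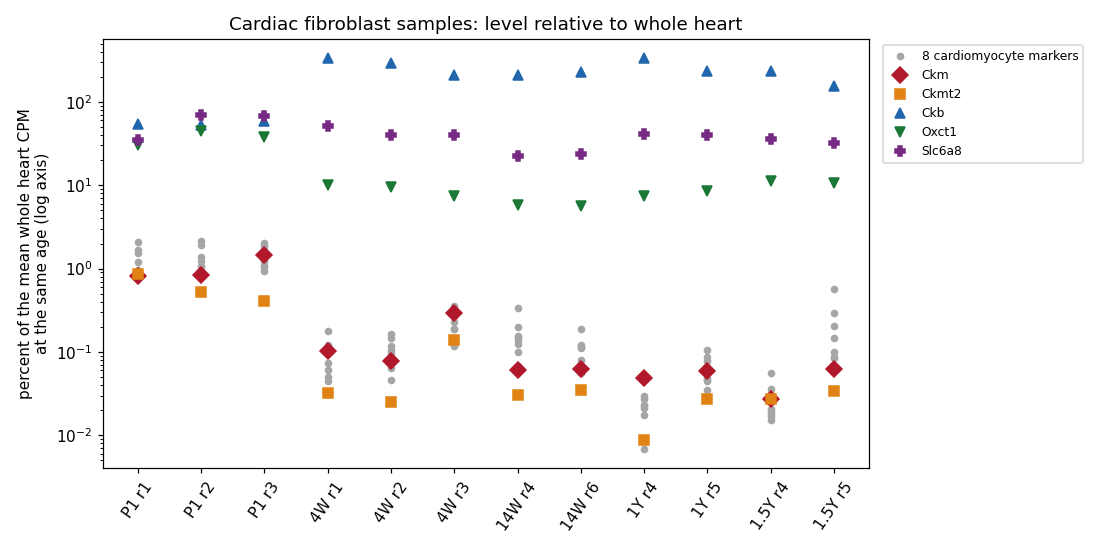
Level of 5 members and of 8 cardiomyocyte markers in each cardiac fibroblast sample, as a percent of the mean whole heart CPM at the same age (log axis; samples by age and replicate, markers at 0 are not drawn). Ckm and Ckmt2 lie within or below the cloud of the markers in most samples, and Ckb, Slc6a8, and Oxct1 lie above it in all 12.

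The genes whose log2 CPM in whole heart followed each member most closely were found among 8484 genes with a mean of at least 10 CPM, by Pearson's r over the 15 samples. The samples share their ages and scaling, so r is a description. Ckmt2 was most like Sgca (r = 0.99), a gene of the sarcoglycan complex of muscle membranes, Ces1d (0.99), and Rpl3l (0.99), the muscle form of a ribosomal protein gene. Oxct1 was most like Ogdhl (0.99), Egln1 (0.99), and Hrc (0.99), the last a calcium-binding protein of the sarcoplasmic reticulum. Ckm was most like the glycolytic gene Gapdh (0.95), Psmc5 (0.94), and Timm50 (0.94).

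Slc6a8 was most like Epm2a (r = 0.96), Synpo (0.96), and Tigar (0.95), each highest at 14 weeks as Slc6a8 was. Bdh1 was most like Htatip2 (0.98), Agpat2 (0.98), and Tmem144 (0.96), and Ckb was most like Hn1 (0.96), Rsph3a (0.94), and Vps37b (0.94). Among the members, Ckmt2 and Oxct1 had the highest r (0.97) and Ckb and Oxct1 the lowest (-0.84) over the 15 samples.

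Reads were counted per gene with a strand setting not given in the sources used here, so that reads of overlapping genes on the other strand may be counted in with a member. Exons of Ckm, Ckmt2, Oxct1, and Bdh1 share bases with such genes. In the files A930016O22Rik, which overlaps Ckm, was at 18.3 to 51.7 CPM in whole heart, and BC037032, which overlaps Oxct1, at 0 to 13.1 CPM. The Ckb pseudogenes Ckb-ps1 and Ckb-ps2 were at most 0.0403 CPM in any sample, so few reads were assigned to them. Reads that match Ckb and a pseudogene equally well were not assessed.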

How the data were processed

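The authors mapped single-end reads of 65 bases with STAR 2.5.3a to mm10 and counted them per gene with STAR's gene counts, per the labels and the study's methods. The deposited values are raw counts for 22855 genes, without normalization. The annotation release is not given in the sources used here. Counts were fitted per tissue with edgeR 4.0.16 in R 4.3.3 (filterByExpr by age, TMM, quasi-likelihood F test, Benjamini-Hochberg adjustment over 17995 genes in whole heart and 18759 in cardiac fibroblasts, threshold 0.05). A gene counts as changed, higher, or lower only past that threshold. SE was taken as |log2 fold change|/√F. Between tissues, 1 fit held all 27 samples. Log2 CPM used a prior count of 2. Isoform shares were compared with exact two-sided permutation tests (scipy 1.17.1). Coordinates and exon lengths came from GENCODE M21 on GRCm38. The members and lists were chosen with earlier results of these data known. Named are all members, genes of the fixed lists (some of which are not reported here), and, per member, the 3 genes most like it. No 2 samples of a group held identical counts (24 pairs). Deviations of log2 CPM from the mean of the age were compared between same-numbered samples. Between ages, r was between -0.06 and 0.10 over 30 pairs in whole heart and between -0.03 and 0.04 over 7 in cardiac fibroblasts. Between the tissues at the same age, r was between -0.04 and 0.02 over 6. These values lay within the range of differently numbered samples and cannot show whether samples share an animal. The tests were first run on simulated data. Alternatives were DESeq2 1.42.0, other scalings and filters, 2 ages alone, the replicate block, other lengths, and samples left out in turn. The scaling without mitochondrial genes and the transcript lengths in place of all exons were added after the data were seen. Precision is limited by 3 or 2 samples per group.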

Additional observations from a re-analysis of the deposited data

Results flagged for a closer look

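Of the members, 4 differed between cardiac fibroblasts and whole heart in their change from P1 to 4 weeks, by the test of the difference itself in 1 fit of both tissues (edgeR's quasi-likelihood F test, adjusted over all genes). The difference is given as cardiac fibroblasts minus whole heart on the log2 scale. It was 2.32 for Ckb (adjusted p = 5.4e-05), which rose in cardiac fibroblasts and fell in whole heart. It was -2.07 for Oxct1 (adjusted p = 6.3e-07), which rose in whole heart and had a log2 change of 0.18 (adjusted p = 0.496) in cardiac fibroblasts. For Ckm it was -2.70 (adjusted p = 0.00124) and for Ckmt2 -3.19 (adjusted p = 0.00149), with Ckm lower in cardiac fibroblasts at 4 weeks and Ckmt2 higher in whole heart. In cardiac fibroblasts Ckm fell beside the cardiomyocyte markers, and their part was not tested, whereas Ckmt2 had a log2 change of 0.56 there (SE 1.24, adjusted p = 0.845). No group of 3 or 2 samples was large enough to test for a sample far from the others.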

How the results depend on the processing

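Of the member values followed under other settings, which left out part of those without a call, 673 kept their direction and side of the threshold, 34 lost a call, 9 gained one, 31 were counts or values that moved, and 10 turned sign, none of these 10 being a call. Among the values not followed there, others without a call crossed 0 when samples were left out, such as Ckb (-0.078 to 0.24) and Bdh1 (-0.26 to 0.074) in whole heart from 14 weeks to 1 year, and Ckmt2 (-0.67 to 0.95) and Bdh1 (-3.07 to 2.94) in cardiac fibroblasts from P1 to 4 weeks. With library size only in place of TMM, Slc6a8 in whole heart had 0.27 at 4 weeks and 0.38 at 1.5 years against P1, Ckm 0.068 at 1.5 years, and both calls of Slc6a8 and that of Ckm were lost. From 4 to 14 weeks Ckmt2 turned to -0.16 and Ckb passed (-0.90), so 2 members changed instead of 1. From 14 weeks to 1.5 years Ckmt2 turned to 0.091, and the difference between tissues of Slc6a8 turned to 0.052. With the mitochondrial genome left out of the library size, Slc6a8 had 0.41 at 4 weeks and Ckm 0.22 at 1.5 years. The cause was not tested in any of these.

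DESeq2 called 3 members from 4 to 14 weeks, adding Slc6a8 (0.59) and Oxct1 (0.48), and 1 from 1 to 1.5 years, Ckb (0.77, adjusted p = 0.0167), where edgeR called 0. A minimum of 10 counts in every sample also called Ckb there (0.77, adjusted p = 0.0383), so 1 member. From 14 weeks to 1.5 years Ckmt2 turned to 0.0062 with DESeq2 and with its size factors and to 0.041 with the minimum of 10 counts. Oxct1 from 14 weeks to 1 year lost its call with DESeq2's size factors (-0.53), library size only (-0.48), no mitochondrial genome in the library size (-0.45), no filter (-0.54), the minimum of 10 counts (-0.49), and the replicate block (-0.55), each leaving 0 members. In the fit of 2 ages alone, from 14 weeks to 1.5 years, Ckb lost its call (0.81) and Bdh1 gained one (0.99).

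The r of same-numbered samples lay within the range of the others, in either tissue and between them. It cannot show whether samples share an animal. With the replicate number as a block, Ckb in cardiac fibroblasts had -1.06 (adjusted p = 0.187) from 4 to 14 weeks and 1.23 (adjusted p = 0.163) from P1 to 1.5 years, and Ckm -3.91 (adjusted p = 0.0945), so 0 members passed in either comparison. Beside that of Oxct1 above, the block changed no other call of a member.

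With samples left out in turn, whole heart Ckm ran from 0.26 to 0.64 (P1 to 4 weeks), from -0.19 to 0.19 (4 to 14 weeks, with 0.0043 and 0.0037 without replicates 1 and 3 of 14 weeks), and from 0.51 to 0.81 (P1 to 1.5 years). Slc6a8 ran from 0.47 to 0.74 from 4 to 14 weeks, with 1 to 2 members called. Oxct1 ran from -0.60 to -0.49 from 14 weeks to 1 year, with 0 members called. Ckb ran from 0.50 to 0.87 from 1 to 1.5 years (0 to 1 member, the call arising without replicate 1 of 1.5 years), from 0.54 to 0.95 from 14 weeks to 1.5 years (1 to 2 members), and from -1.01 to -0.61 from P1 to 1.5 years. Ckmt2 ran from -0.18 to 0.060 from 14 weeks to 1.5 years. In cardiac fibroblasts Ckm ran from -3.01 to -1.84 at the first step (1 to 2 members), and Ckb from -1.13 to -0.85 from 4 to 14 weeks (0 to 1 member) and from 0.73 to 1.30 from P1 to 1.5 years (1 to 2 members). The comparisons of creatine kinase shares kept their direction and call with the length of the principal or shortest coding transcript and with counts alone. Bdh1 gave no value with the minimum of 10 counts in cardiac fibroblasts. The counts of Bdh1 and Ckmt2 there, down to 1 and 13, limit what can be said of their change with age.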

Other observations

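In cardiac fibroblasts, genes of the related lists also differed between P1 and 4 weeks. Of the 7 ketone body genes tested, 2 were higher (Aacs and Bdh2) and 1 was lower (Acat1), with a median log2 change of 0.79, beside the 15.5% of all genes that passed. Aacs, the cytosolic synthetase that turns acetoacetate to lipid synthesis, went from 9.78 to 12.6 CPM at P1 to 22.9 to 35.9 CPM at 4 weeks (log2 1.33, adjusted p = 0.00497, edgeR). Bdh2, a cytosolic relative of Bdh1, had 0, 0, and 1 counts in the 3 samples of P1 and 824, 677, and 396 counts at 4 weeks (adjusted p = 8.0e-06), and between 313 and 593 counts in the 6 later samples. In whole heart Bdh2 had between 0 and 230 counts, with 14, 0, and 0 in the 3 samples of 4 weeks, and passed in no comparison of ages. Acat1 went from 77.3 ± 15.5 to 52.9 ± 6.78 CPM (SD, n = 3; log2 -0.54, adjusted p = 0.0381), and its change differed from that of whole heart (-0.96, adjusted p = 0.00444).

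Of the 7 carriers and channels of the mitochondrial membranes, 4 were lower in cardiac fibroblasts at 4 weeks and none was higher. Over all genes 15.5% passed in both directions. Vdac1, a channel of the outer membrane, went from 135 ± 20.8 to 66.5 ± 5.69 CPM (log2 -1.02, adjusted p = 0.0002), and Slc25a4 from 268 ± 13.5 to 171 ± 19.7 CPM (SD, n = 3; log2 -0.65, adjusted p = 0.00323). For both the change differed from that of whole heart, with -1.68 for Vdac1 (adjusted p = 8.4e-06) and -1.37 for Slc25a4 (adjusted p = 0.0004). These calls in cardiac fibroblasts kept their direction and side of the threshold under the other 3 scalings. Of the 8 cardiomyocyte markers, 5 were also lower in cardiac fibroblasts at 4 weeks. Their part in the values of Slc25a4 and Vdac1 was not tested.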
